A study of Danio rerio with 53 samples.

Results

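Thymic T cells labelled T Stage IV were compared with thymic T cells labelled T Stage III. Both were sorted from the thymus of zebrafish of the double-transgenic line lckmCherry-cd79aGFP, in which the lck promoter drives the red protein mCherry and the cd79a promoter drives green fluorescent protein (GFP). T Stage III is the population that the labels call T1 and T Stage IV the one they call T2, with 3 libraries each, numbered 45 to 47 and 48 to 50. They make up 6 of the 53 libraries of a series on lymphocytes and the involution of the thymus. Both groups carry both transgenes, and the labels record no treatment and give no age. The cell type name is spelled "T State III" in the labels of libraries 45 to 47 and was read as T Stage III. T Stages I and II of the same series came from other lines, so the comparison within this line has no earlier T stage beside it. Nothing in the labels says whether the libraries came from separate fish, so the p values measure a spread between libraries, which may be technical. In the main fit that spread was estimated within the groups of all 53 libraries, not from these 6 alone.

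Developing T cells pass through the thymus while they rearrange their antigen receptor genes with the Rag recombinase. They show the coreceptors Cd4 and Cd8 and read receptor signals through the kinase Lck. Thymic tissue also holds B cells and cells that present antigen on major histocompatibility complex (MHC) class II, in which the invariant chain Cd74 escorts the class II molecules. The promoter of cd79a, which encodes a subunit of the B cell receptor, is used to mark B lineage cells.

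RNA was measured by sequencing the 3-prime end of each transcript. Levels are given as CPM, each count divided by its library's total and set to a common scale, and because the method reads transcript ends they are not divided by gene length. The 6 libraries held 12136116 to 18098246 counts and between 7569 and 8397 detected genes. A count of 0 allows at most 3 counts, which is 0.166 to 0.247 CPM. These limits cover counting error only. Transcripts of cytosolic ribosomal proteins took 32.9% to 50.6% of the counts, with high and low shares in both groups. Many genes were seen in some libraries of a group and not in others. In T Stage III, 2770 of 7891 genes that reached 10 CPM in a library had no count in at least 1 other, and in T Stage IV the figure was 2095 of 7730. Pearson's r of log2(CPM + 1) across genes was 0.727 to 0.731 within T Stage III, 0.778 to 0.793 within T Stage IV and 0.733 to 0.764 between the groups, so T Stage III libraries were no closer to each other than to T Stage IV libraries.

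The reporters and lineage genes were examined first. The GFP transgene gave 1.83, 0 and 0 CPM in the T Stage III libraries and 129, 112 and 152 CPM in the T Stage IV libraries. The transgene was thus counted in every T Stage IV library and, apart from 24 counts in library 45, not in T Stage III. The endogenous cd79a gene had no count in any of the 6 libraries. The lck gene, which encodes the Src family kinase of T cell receptor signalling, stood at 422, 797 and 444 CPM in T Stage III and at 724, 488 and 557 CPM in T Stage IV, and the groups overlapped (log2 fold change 0.08, SE 0.66, edgeR adjusted p 1). Both populations thus carried T cell transcripts. Of 14 B cell receptor signalling genes in the table, 7 had no count in the 6 libraries, among them cd79b and blnk, and PAX5, the B lineage regulator, had none either. The other 7 were counted, with PTPN6 highest at 36.8, 262 and 128 CPM against 324, 176 and 114 CPM. This list summed to 119, 523 and 328 CPM against 437, 230 and 229 CPM, and edgeR called 1 member, SYK, lower. Of the 14, 2 had an edgeR unadjusted p under 0.05, as had 7.11% of all genes tested. Of 8 B lineage regulators, 7 had counts and 0 were called, with sums of 73.7, 91.5 and 109 CPM against 84.4, 24.6 and 26.1 CPM. Of the 8, 3 had an unadjusted p under 0.05, with XBP1 and spi1a lower and pou2f2b higher. XBP1 was the 1 regulator wholly below T Stage III, where 2.42% of all genes tested lay wholly below. The 7 immunoglobulin genes of the table summed to at most 6.95 CPM in a library.

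Differences were tested with edgeR's quasi-likelihood test over 14423 genes, with p values adjusted by the Benjamini-Hochberg method and a threshold of 0.05. All 11 genes that passed were lower in T Stage IV, and they are 0.0763% of the genes tested. Of these, 10 are described. No gene was called higher (0%). At an unadjusted p under 0.05 there were 621 genes lower (4.31%) and 405 genes higher (2.81%), together 7.11% of those tested. DESeq2, another count model, called 1686 of the 14423 genes, 853 of them higher and 833 lower. Libraries of the groups did not overlap in 349 genes with T Stage IV below (2.42%) and in 528 genes with T Stage IV above (3.66%). Counts of list genes given below are to be read beside these shares over all genes. In bulk RNA, fewer cells of a type and less RNA per cell cannot be told apart.

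**Figure D1:**
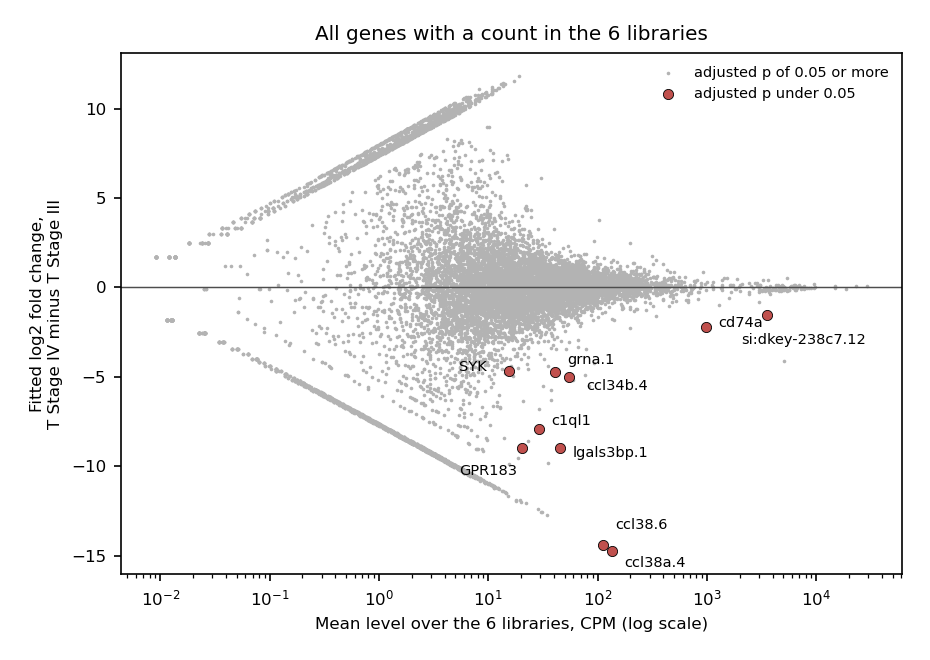
Each point is a gene with a count in at least 1 of the 6 libraries, with its mean level in CPM on a log axis and its fitted log2 fold change, T Stage IV minus T Stage III. The 10 genes shown in red, of the 11 with an adjusted p under 0.05, all lie below 0, and the straight edges are genes at 0 in one group, where the fitted value depends on a prior count.

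Chemokines gave 3 of the 11 calls. These small secreted proteins attract leukocytes through receptors on the cell surface, and the ccl34 and ccl38 genes belong to families of CC chemokines in fish. The gene ccl38.6 (ENSDARG00000041923) stood at 72.1, 203 and 400 CPM in T Stage III, and none of the T Stage IV libraries had a count. Its level was at least 1070-fold lower in T Stage IV, set against the mean level of 3 counts per library (edgeR adjusted p 1.43e-08). The gene ccl38a.4 (ENSDARG00000041917) stood at 107, 256 and 451 CPM and again without a count in T Stage IV, at least 1290-fold lower (edgeR adjusted p 9.99e-06). For both, every T Stage III library was high and every T Stage IV library empty, and the calls held without any 1 of the 6 libraries. The third, ccl34b.4 (ENSDARG00000094002), stood at 19, 86.5 and 215 CPM in T Stage III and at 7.17, 0 and 2.93 CPM in T Stage IV, without overlap (log2 fold change -5.03, SE 1.06, edgeR adjusted p 0.0377). Its call ended without library 47, 48, 49 or 50, with adjusted p values of 0.307, 0.221, 0.39 and 0.299.

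Other chemokine genes missed the threshold, some with the same separation of the groups. Of 23 chemokine genes in the table, 3 were called lower and 0 higher, 6 lay wholly below T Stage III and 0 above. Their median log2 fold change was -2.57, or -3.69 over the 17 genes above 3 counts in some library with empty sides set at their bounds, where all genes tested had a median of 0 by either reckoning. The list was chosen with earlier results of these libraries known and holds the called genes. Summed over the list, chemokines stood at 425, 766 and 1640 CPM in T Stage III and at 34.9, 51 and 11.7 CPM in T Stage IV. The gene ccl38a.5 stood at 19.1, 84.6 and 382 CPM against 0, 10.9 and 0 CPM (edgeR adjusted p 0.47, but 1.45e-06 in a fit of the 6 libraries alone and 0.0315 with non-robust moderation), and ccl35.1 at 48, 50.5 and 80.8 CPM against 13.8, 0 and 0 CPM (edgeR adjusted p 0.593). In the RefSeq gene order of the GRCz12tu assembly, ccl38.6, ccl38a.5 and ccl38a.4 are consecutive genes on chromosome 20, and similar 3-prime ends could share reads, so their separate values are uncertain. The T cell attractant genes ccl25a, at 28.3, 0.343 and 6.96 CPM against 3.63, 14.7 and 0 CPM, and ccl19a.1, at 42.4, 2.47 and 2.42 CPM against 0, 11.6 and 6.46 CPM, overlapped between the groups.

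**Figure D2:**
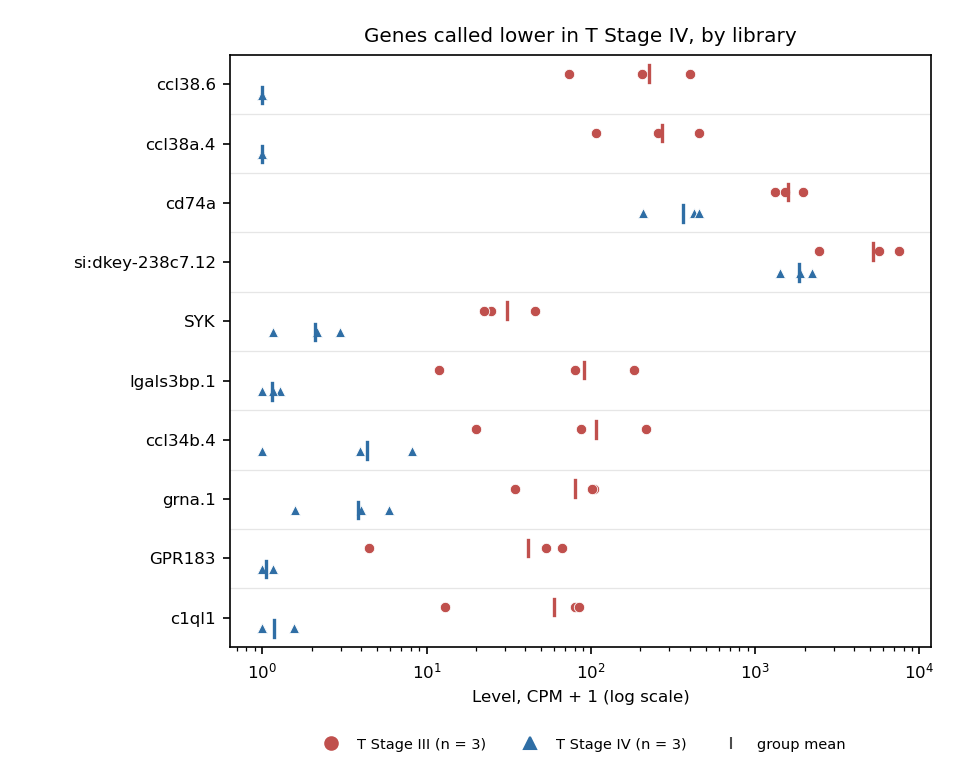
Levels of 10 of the 11 genes called lower in T Stage IV, as CPM + 1 on a log axis, with 1 point per library and a bar at each group's mean. The chemokine genes ccl38.6 and ccl38a.4 are at 0 in all 3 T Stage IV libraries, and cd74a drops from 1310 to 1960 CPM to 208 to 455 CPM.

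Genes of MHC class II presentation came next. The invariant chain gene cd74a (ENSDARG00000009087) stood at 1310, 1960 and 1510 CPM in T Stage III and at 422, 455 and 208 CPM in T Stage IV. The groups were far apart, and the gene stayed abundant in T Stage IV. The log2 fold change was -2.24 (SE 0.38, edgeR adjusted p 0.000335), with an adjusted p of 0.0972 without library 50. The other invariant chain gene, cd74b, stood at 307, 614 and 602 CPM against 214, 211 and 109 CPM, also without overlap, but missed the threshold (log2 fold change -1.58, SE 0.42, edgeR adjusted p 0.135). It was called in a fit of the 6 libraries alone (edgeR adjusted p 0.0316) and with the filter set within those libraries (0.0309). Of 10 class II presentation genes in the table, 1 was called lower and 0 higher, and their median log2 fold change was -0.98. The cathepsin S genes, which encode proteases that trim the invariant chain, overlapped, with ctss2.1 at 124, 328 and 238 CPM against 179, 197 and 52.8 CPM. The class II regulator ciita stood at 25.4, 4.11 and 32.8 CPM against 15.2, 12.3 and 4.03 CPM. The class II chain genes of the list were at or near 0 in most libraries, with mhc2dgb at 0.0764, 0 and 0 CPM against 20.1, 0 and 0 CPM. For class I presentation, 0 of 11 genes was called by edgeR (2 at an unadjusted p under 0.05 and 1 by DESeq2). The median was -0.02, or -0.25 over the 10 genes above 3 counts in some library with empty sides at their bounds. The 2 genes were b2m and b2ml, with log2 fold changes of -0.84 and -0.99, and their groups overlapped.

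The kinase gene SYK was also called. Syk passes signals from the B cell receptor and from Fc receptors. SYK (ENSDARG00000008186) stood at 44.9, 23.7 and 21.3 CPM in T Stage III and at 0.165, 1.15 and 1.99 CPM in T Stage IV, all of the first above all of the second (log2 fold change -4.67, SE 0.94, edgeR adjusted p 0.00393). Its adjusted p rose to 0.0536, 0.125 and 0.169 without library 45, 48 or 49 and to 0.419 in a fit of the 6 libraries alone.

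The remaining called genes encode secreted proteins, a receptor and a protein without a given name. The gene lgals3bp.1 (ENSDARG00000040528), of the family that binds galectin 3, stood at 10.9, 181 and 78.6 CPM in T Stage III and at 0, 0.288 and 0.166 CPM in T Stage IV (edgeR adjusted p 0.0377). The granulin family gene grna.1 (ENSDARG00000089362) stood at 33.4, 103 and 101 CPM against 0.577, 4.9 and 2.98 CPM (log2 fold change -4.73, SE 1.1, edgeR adjusted p 0.0377). The gene c1ql1 (ENSDARG00000043436), which encodes a secreted protein with a C1q-like domain, stood at 11.9, 79.6 and 83.7 CPM against 0, 0 and 0.553 CPM (edgeR adjusted p 0.0473). In all 3 the groups did not overlap and library 45 was the lowest of T Stage III. GPR183 (ENSDARG00000010317), in mammals the receptor for oxysterols that guides B cells and dendritic cells, stood at 3.44, 65.5 and 52.4 CPM against 0, 0 and 0.166 CPM (edgeR adjusted p 0.0377). It had 1693 pooled counts against 3, a ratio of levels of 609 with a 95% counting interval of 208 to 2960. These 4 calls held without library 45 and ended without any 1 of the other 5, where adjusted p values ran from 0.0672 to 0.447.

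The most abundant called gene was si:dkey-238c7.12 (ENSDARG00000095556), which has a clone name and no role in the sources used here. It stood at 2460, 5650 and 7540 CPM in T Stage III and at 1870, 2220 and 1420 CPM in T Stage IV, where library 45 was close to the highest T Stage IV library. The log2 fold change was -1.52 (SE 0.3, edgeR adjusted p 0.00271), and the adjusted p was 0.198 without library 47 and 0.0682 without library 48. Close by on chromosome 18 in the RefSeq order, with 1 gene between them, lies si:dkey-238c7.13, which was picked after its values were seen. It stood at 3010, 9210 and 16800 CPM against 684, 646 and 357 CPM (log2 fold change -4.14, SE 0.95, edgeR adjusted p 0.0686), so it missed the threshold although every T Stage III library lay above every T Stage IV library. A fit of the 6 libraries alone called it, with an adjusted p of 2.08e-15.

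The called genes were unevenly spread over the T Stage III libraries. Library 45 had the lowest T Stage III level in 10 of the 11 genes, where it was lowest in 42.6% of the 5915 tested genes with a mean of at least 10 CPM over the 6 libraries. SYK was the exception, with its highest level in library 45. The highest level fell in library 47 for 6 genes and in library 46 for 4.

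Levels in the other sorted populations were set beside these as a description, across lines and with no test. Of the 11 genes, 7 had their highest median in the early T-committed cells of the marrow (6 libraries, from the lckmCherry-cd79aGFP and lckmCherry-cd79bGFP lines) and 4 in B cells. In all 11 the early T-committed median lay above that of T Stage III. The gene ccl38.6 ran from 555 to 2980 CPM in early T-committed cells, with a median of 910 CPM, but at most to 0.0679 CPM in T Stage I and 4.41 CPM in T Stage II. For ccl38a.4 the early T-committed libraries ran from 91.6 to 1260 CPM, and no T Stage I or T Stage II library had a count. The gene ccl34b.4 had a median of 3220 CPM in early T-committed cells, 2.77 CPM in T Stage I and 16.6 CPM in T Stage II. T Stage III was thus the thymic T stage with ccl38.6 and ccl38a.4 transcripts, and T Stages I, II and IV were at or near 0.

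For the antigen presentation and B cell genes the highest populations were B cells. The cd74a gene ran from 2830 to 12500 CPM in thymic B cells (11 libraries), with a median of 8580 CPM, and had medians of 1010 CPM in T Stage I and 605 CPM in T Stage II, both between T Stage IV and T Stage III. Its T Stage I libraries ran from 327 to 2080 CPM and its T Stage II libraries from 322 to 1680 CPM, so each overlapped both groups. T Stage I held populations T2, at 1100 to 2080 CPM, and T3, at 327 to 923 CPM. Thymic B cells had a SYK median of 577 CPM, T Stage I one of 9.35 CPM and T Stage II one of 0.132 CPM. The T Stage IV median was the lowest of the 4 T stages, or shared the lowest place, for 7 of the 11 genes. Low levels were not particular to T Stage IV, since T Stages I and II also had medians below T Stage III in the called genes. For grna.1 these were 5.07 and 2.03 CPM against 101 CPM, and for GPR183 2.6 and 3.14 CPM against 52.4 CPM.

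**Figure D3:**
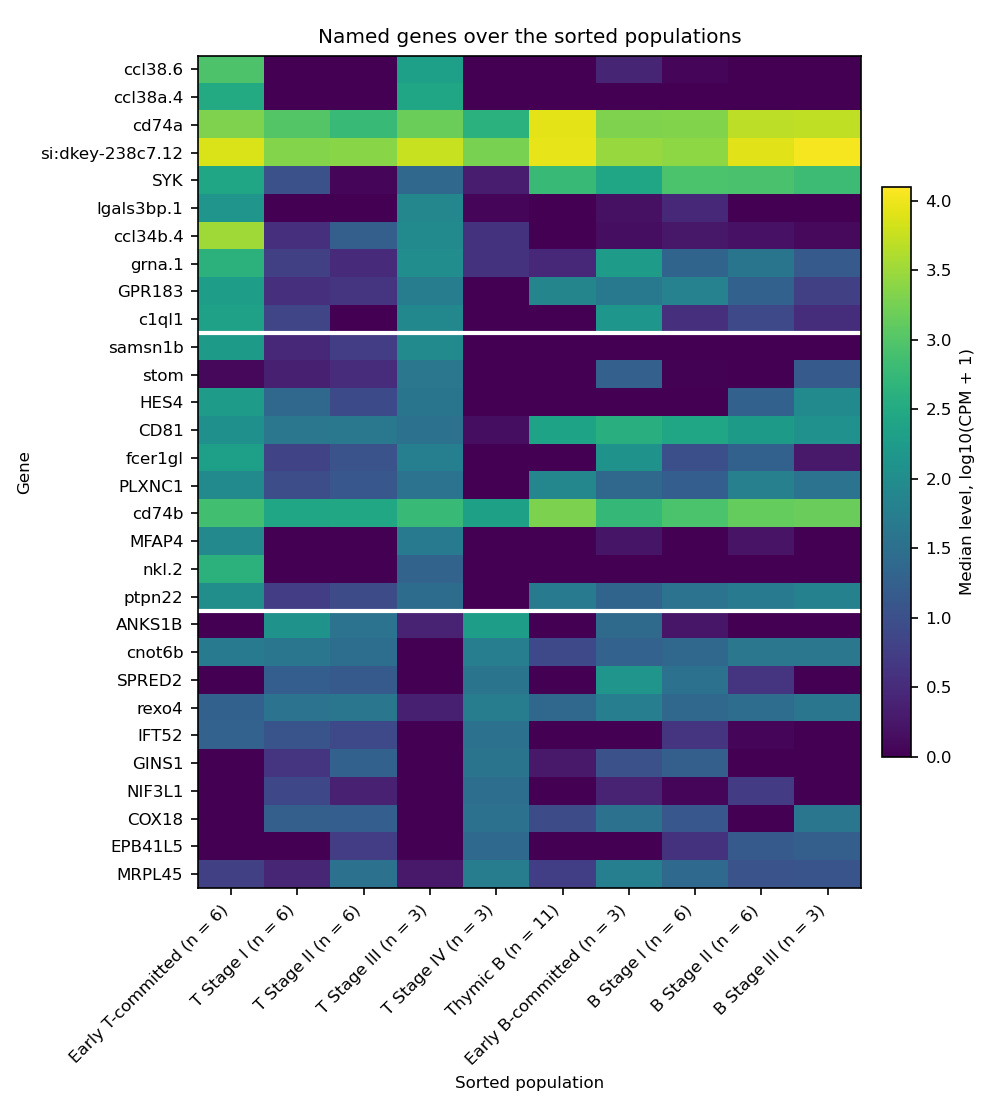
Median level of the genes named in the text over the libraries of each sorted population, as log10(CPM + 1), with 10 called genes above the first white line, the next genes by p that were lower in T Stage IV between the lines, and those that were higher under the second. T Stage III shares most of the upper genes with early T-committed cells (median of 910 CPM for ccl38.6), and T Stage IV is dark in most of them. The medians of T Stages I and II also lie below that of T Stage III in the upper genes.

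The next 10 genes by p with separate libraries and T Stage IV below were not called in the fit over all 53 libraries, but each was called under at least 1 alternative. Of these, 5 had no T Stage IV count at all. The adaptor gene samsn1b stood at 14.3, 89 and 104 CPM in T Stage III (at least 330-fold above T Stage IV, edgeR adjusted p 0.0503, and 0.042 with median-ratio size factors). The stomatin gene stom stood at 41.1, 107 and 36.8 CPM (at least 294-fold, edgeR adjusted p 0.0559). The semaphorin receptor gene PLXNC1 stood at 42.6, 35.3 and 29.7 CPM, the NK-lysin gene nkl.2 at 19.5, 43.5 and 18.3 CPM and ptpn22, which in mammals encodes a phosphatase that restrains antigen receptor signalling, at 5.65, 27.6 and 54.9 CPM. Their edgeR adjusted p values were 0.0681, 0.165 and 0.185. The other five were cd74b, HES4, CD81, fcer1gl and a gene of the MFAP4 family (ENSDARG00000090783), with adjusted p values from 0.0559 to 0.142. The tetraspanin gene CD81 stood at 18.8, 40 and 34.7 CPM against 0.412, 0 and 3.26 CPM, and fcer1gl, which encodes a relative of the Fc receptor gamma chain, at 57.4, 67.1 and 49.7 CPM against 0, 1.66 and 0 CPM. In a fit of the 6 libraries alone the adjusted p was 0.00895 for stom, 0.00486 for HES4, 0.021 for fcer1gl and 0.00895 for the MFAP4 gene. Under edgeR's older formulation it was 0.0131 for PLXNC1, 0.017 for ptpn22 and 0.0345 for CD81, and nkl.2 was called by DESeq2 alone, with an adjusted p of 0.013.

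Marker lists of other cell types are given beside these calls. Of 27 myeloid marker genes in the table, 0 were called by edgeR, 9 had an unadjusted p under 0.05 and DESeq2 called 5. Over all genes tested, edgeR called 0.0763%, 7.11% had an unadjusted p under 0.05 and DESeq2 called 1686 of 14423. Of the 27 myeloid genes, 4 lay wholly below T Stage III and 0 above, against 2.42% and 3.66% of all genes tested. Summed, the myeloid list stood at 507 to 1420 CPM in T Stage III and at 329 to 577 CPM in T Stage IV, so the groups overlapped. The median log2 fold change was -1.65, or -2.33 over the 21 genes above 3 counts in some library with empty sides at their bounds. The complement gene c1qb stood at 0, 126 and 45.7 CPM against 0 in all 3, c1qc at 2.45, 23.2 and 38.5 CPM against 0 in all 3, and the MFAP4 family gene named above at 4.2, 170 and 46.5 CPM against 0, 4.11 and 0 CPM. For c1qb the edgeR adjusted p was 0.0559, and it was 0.047 with non-robust moderation and 0.015 without library 45. Some other members did not share this pattern. The third C1q gene, c1qa, stood at 0, 0.0686 and 0 CPM against 0, 9.16 and 0 CPM, and the scavenger receptor gene marco at 0, 0.411 and 2.04 CPM against 19.8, 0 and 0 CPM. The more abundant LCP1, at 17.6, 56.6 and 199 CPM against 59.9, 83.9 and 89.7 CPM, and cd68, at 42.9, 63.1 and 106 CPM against 84.2, 86.1 and 36.5 CPM, overlapped, with log2 fold changes of -0.14 and -0.13. MMP9, which encodes a matrix metalloproteinase, also overlapped, with a log2 fold change of 0.29 (SE 1.5). The defining genes lyz, npsn, csf1ra and CSF3R had no count in the 6 libraries. MPEG1, the macrophage-expressed perforin gene, which was not in the list under this symbol and was picked after its values were seen, stood at 83.4, 167 and 101 CPM against 1.32, 42 and 5.36 CPM (edgeR adjusted p 0.47). It also had a median of 503 CPM in thymic B cells.

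Of 18 genes of natural killer, innate lymphoid and cytotoxic cells, 0 were called by edgeR, 4 had an unadjusted p under 0.05, DESeq2 called 5 and 5 lay wholly below T Stage III. The genes wholly below include nkl.2 and fcer1gl, both already given above, and fcer1gl is also in the myeloid list. The list summed to 170 to 363 CPM in T Stage III, most of it from gzmk, fcer1gl and nkl.2, and to 37 to 56 CPM in T Stage IV. The granzyme gene gzmk stood at 69.4, 214 and 139 CPM against 46, 37 and 34.6 CPM (log2 fold change -1.84, SE 0.84, edgeR adjusted p 0.629). The perforin genes prf1.1 and prf1.9 had no count. Early T-committed libraries held 1330 to 2500 CPM of this list and thymic B libraries at most 58.5 CPM. Dendritic cell markers summed to 49.6 to 96.3 CPM against 5.19 to 51.4 CPM and overlapped, with 0 of 6 called by edgeR, 0 at an unadjusted p under 0.05 and 0 by DESeq2, and flt3, ZBTB46 and cd83 had no count. Stroma and epithelium markers summed to 174 to 431 CPM against 109 to 185 CPM and overlapped. The part of these cell types in the 11 calls was not tested.

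**Figure D4:**
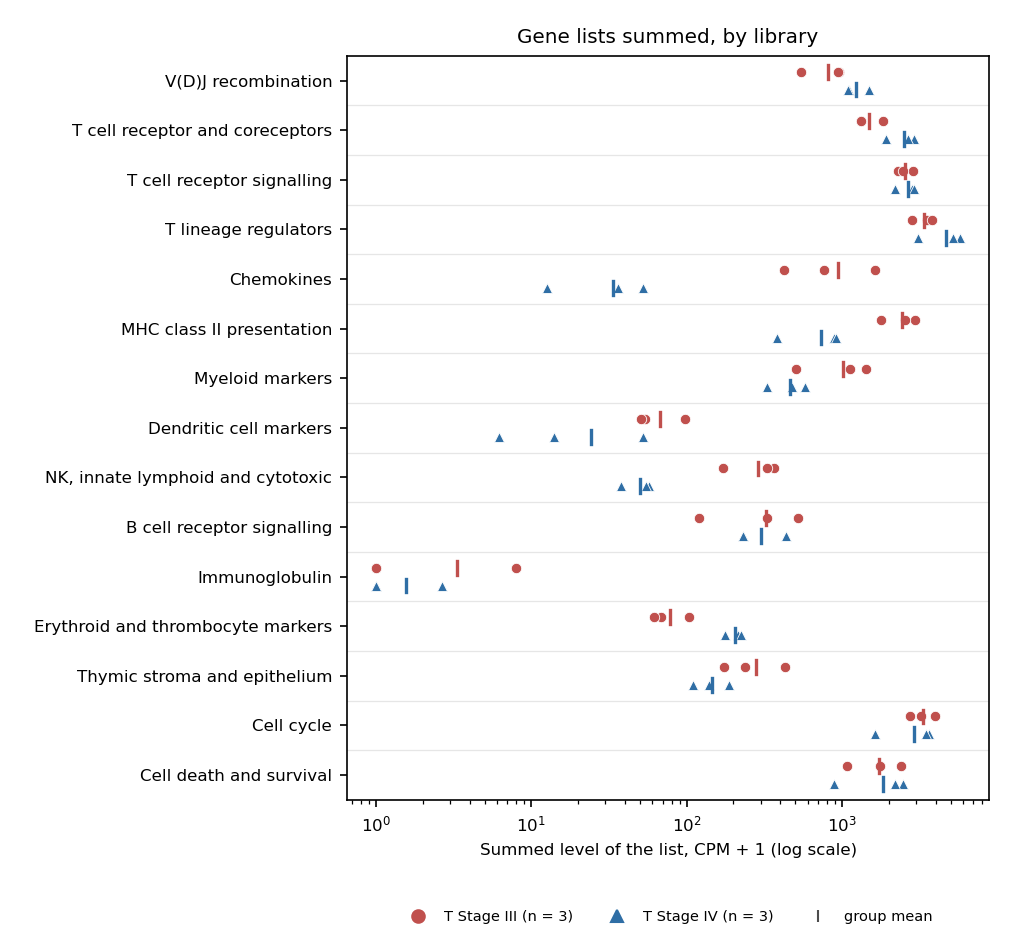
Summed level of each gene list in every library, as CPM + 1 on a log axis, with a bar at each group's mean. The sums for chemokines (425 to 1640 CPM against 11.7 to 51 CPM), MHC class II presentation and cytotoxic genes are lower in all T Stage IV libraries. The class II sum is mostly cd74a and cd74b. The sums for T cell receptor and coreceptor, V(D)J recombination, and erythroid and thrombocyte genes are higher in all T Stage IV libraries, the last being mostly hbaa1. Cell cycle and cell death lists overlap.

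Haemoglobin genes were not called by edgeR over all 53 libraries, and the libraries of the groups were separate for hbaa1 and HBE1. The haemoglobin gene hbaa1 stood at 66.9, 91.3 and 60.6 CPM in T Stage III and at 198, 171 and 216 CPM in T Stage IV without overlap, but with a log2 fold change of 1.43, an SE of 1.06 and an edgeR adjusted p of 0.864. HBE1 (ENSDARG00000069734), whose symbol is shared by another identifier not given here, was picked after its values were seen. It stood at 0, 2.13 and 0 CPM against 105, 69.5 and 6.91 CPM (edgeR adjusted p 0.47, and 0.00783 with non-robust moderation). The erythroid genes alas2, gata1a and EPOR had no count. Of the 9 genes of the erythroid and thrombocyte list 0 were called by edgeR, 0 had an unadjusted p under 0.05 and DESeq2 called 2. Their sums were 66.9, 103 and 61 CPM in T Stage III and 212, 175 and 221 CPM in T Stage IV, without overlap. These sums are mostly hbaa1, so they restate that gene, and 4 of the 9 genes had no count in the 6 libraries.

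By edgeR, the lists of T cell development genes gave no call. Of 10 V(D)J recombination genes 0 were called by edgeR, 1 (nhej1) had an unadjusted p under 0.05 and DESeq2 called 2, both lower, with a median log2 fold change of 0.35. Summed, they stood at 961, 941 and 540 CPM in T Stage III and at 1100, 1500 and 1090 CPM in T Stage IV, without overlap. The sums were not tested. RAG1, a subunit of the recombinase, stood at 564, 668 and 271 CPM in T Stage III and at 665, 899 and 733 CPM in T Stage IV (log2 fold change 0.58, SE 0.71, edgeR adjusted p 1). RAG2, the other subunit, stood at 105, 60.3 and 78 CPM against 64.3, 87.4 and 123 CPM. Both stages thus held recombinase transcripts at overlapping levels. DCLRE1C, which encodes the nuclease that opens the hairpin ends, stood at 158, 55.6 and 71.1 CPM against 160, 267 and 184 CPM (log2 fold change 1.01, SE 0.75, edgeR adjusted p 0.86). The polymerase gene dntt had 6.57 CPM in library 45 and no count in the others.

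Coreceptor levels lay higher in T Stage IV, within the error of the test. The gene cd8a stood at 418, 841 and 665 CPM in T Stage III and at 1300, 1410 and 865 CPM in T Stage IV (log2 fold change 0.86, SE 0.67, edgeR adjusted p 0.884). The gene cd8b stood at 355, 357 and 268 CPM against 710, 456 and 627 CPM (log2 fold change 0.84, SE 0.69, edgeR adjusted p 0.893). For both, the groups did not overlap. The gene cd4-1 stood at 284, 226 and 161 CPM against 337, 396 and 239 CPM, and trbc1, a constant gene of the receptor beta chain, at 182, 325 and 118 CPM against 462, 294 and 128 CPM, and these overlapped. Over the 10 receptor and coreceptor genes the sums were 1330, 1840 and 1320 CPM against 2910, 2670 and 1920 CPM. None was called by edgeR, 0 had an unadjusted p under 0.05 and DESeq2 called 0. In T Stage I, from another line, the sum ran from 1870 to 2930 CPM and in T Stage II from 807 to 2000 CPM.

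**Figure D5:**
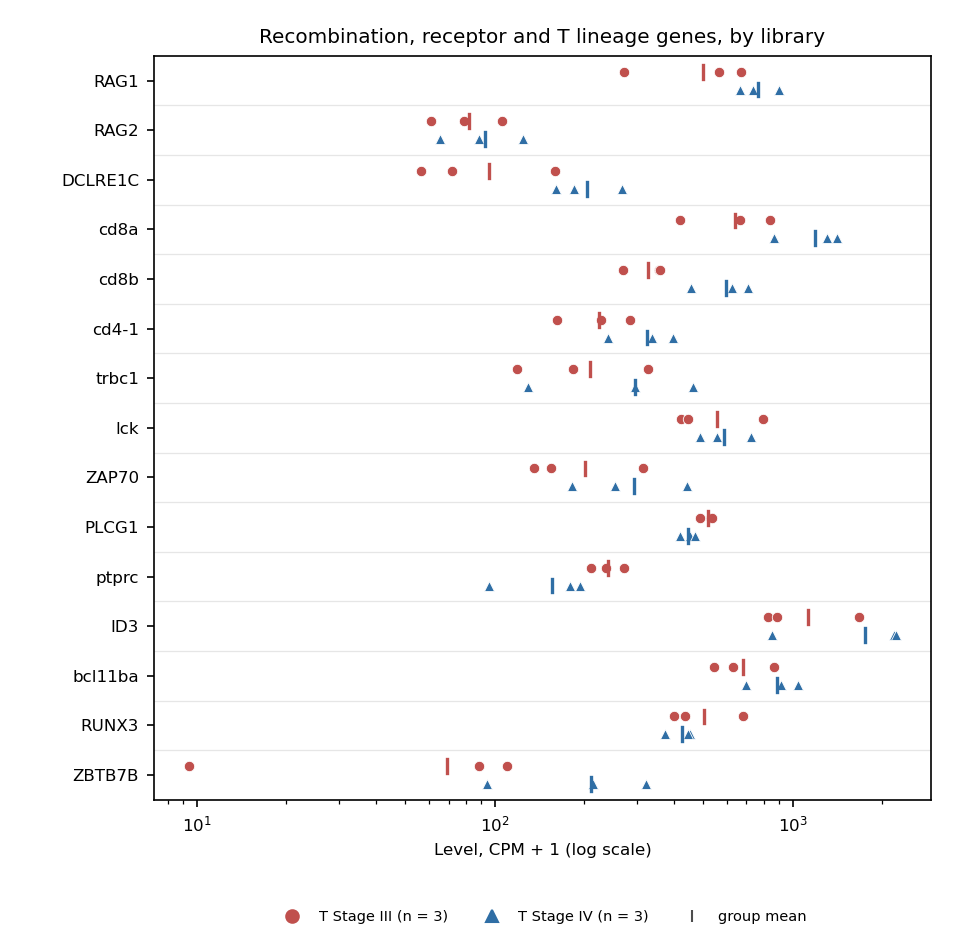
Levels of 15 recombination, receptor, signalling and lineage genes, as CPM + 1 on a log axis, with 1 point per library and a bar at each group's mean. The groups overlap in most of them, the T Stage IV libraries lie above for cd8a, cd8b and DCLRE1C and below for PLCG1 and ptprc, and none of the 15 passed the threshold.

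Receptor signalling genes gave 0 calls of 19 by edgeR, 0 at an unadjusted p under 0.05 and 2 by DESeq2, with a median log2 fold change of 0.08. ZAP70, the kinase that binds the receptor's zeta chain, stood at 134, 154 and 314 CPM against 253, 442 and 181 CPM, and the adaptor gene lat at 90.7, 167 and 339 CPM against 289, 260 and 122 CPM. Wholly below T Stage III lay 3 genes, of which PLCG1, the phospholipase of the pathway, had 488, 530 and 535 CPM against 450, 419 and 468 CPM, a log2 fold change of -0.22 (SE 0.54). The phosphatase gene ptprc, which encodes CD45, stood at 236, 271 and 210 CPM against 178, 192 and 94.4 CPM (log2 fold change -0.73, SE 0.51, edgeR adjusted p 0.823).

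Of 24 regulators of the T lineage 0 were called by edgeR, 1 had an unadjusted p under 0.05 and DESeq2 called 3, with a median log2 fold change of 0.5. ID3, an inhibitor of E proteins that receptor signals induce in mammals, stood at 823, 888 and 1670 CPM against 2190, 2220 and 851 CPM. The gene bcl11ba, of the family that holds cells in the T lineage, stood at 629, 867 and 542 CPM against 1040, 910 and 699 CPM. RUNX3, in mammals tied to the Cd8 lineage, stood at 398, 680 and 435 CPM against 452, 446 and 371 CPM. ZBTB7B, in mammals tied to the Cd4 lineage, stood at 8.41, 87.7 and 109 CPM against 322, 212 and 93.5 CPM (log2 fold change 1.53, SE 0.87, edgeR adjusted p 0.73). The regulatory T cell gene foxp3a was the 1 regulator wholly above, at 0, 0 and 0.151 CPM against 37.7, 6.99 and 0.221 CPM, where libraries 47 and 50 had 2 and 4 counts and the edgeR adjusted p was 0.629.

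The list of genes that guide movement gave 0 calls of 12 by edgeR, with 2 at an unadjusted p under 0.05 and 3 by DESeq2. It does not hold GPR183 under this symbol, and that gene was called lower, as given above (edgeR adjusted p 0.0377). CCR7 encodes the receptor for Ccl19 that draws mammalian thymocytes towards the medulla. Of the 12 listed genes it was the 1 wholly below, at 25.8, 69.5 and 33.2 CPM against 12.9, 12.9 and 3.26 CPM (log2 fold change -2.26, SE 1.17, edgeR adjusted p 0.706). CORO1A, an actin regulator, stood at 826, 1970 and 1800 CPM against 3120, 2410 and 1190 CPM. The exit receptor gene S1PR1 had 5.52 CPM in library 48 and no count in the others.

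Cell cycle genes gave 0 calls of 41 by edgeR, with 2 at an unadjusted p under 0.05 and 2 by DESeq2, and a median log2 fold change of -0.39. The proliferation marker mki67 stood at 72.9, 151 and 56.9 CPM against 160, 77.8 and 56.7 CPM, and PCNA, the sliding clamp of replication, at 488, 277 and 465 CPM against 497, 748 and 220 CPM. Cell death and survival genes gave 0 of 18 by edgeR, 0 at an unadjusted p under 0.05 and 2 by DESeq2. Of the 18, 3 lay wholly above T Stage III and 0 below, against 3.66% and 2.42% of all genes tested. The survival gene mcl1a stood at 607, 1130 and 1710 CPM against 1480, 1420 and 539 CPM. The death gene bbc3, which encodes Puma, stood at 9.48, 0 and 0 CPM against 10.8, 20.4 and 20.8 CPM, without overlap (edgeR adjusted p 0.749).

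The edgeR fit over all 53 libraries called no gene higher in T Stage IV, against 405 at an unadjusted p under 0.05, 853 by DESeq2 and 4 in a fit of the 6 libraries alone. The 10 nearest by p with separate libraries are given as values. ANKS1B (ENSDARG00000003512) stood at 0, 1.51 and 39.6 CPM in T Stage III and at 194, 301 and 86.9 CPM in T Stage IV (log2 fold change 3.75, SE 1.06, edgeR adjusted p 0.222). A fit of the 6 libraries alone called it, with an adjusted p of 0.000157. It was also counted in every T Stage I and T Stage II library, with medians of 120 and 35.8 CPM, while early T-committed libraries had at most 0.385 CPM and thymic B libraries at most 0.67 CPM. SPRED2, which encodes an inhibitor of the Ras and ERK pathway, had no count in T Stage III and 58.7, 37.3 and 18.9 CPM in T Stage IV, which is 173-fold or more above the mean level of 3 counts per library (edgeR adjusted p 0.312). GINS1, a subunit of the replicative helicase complex, had no count in T Stage III and 37.9, 37.1 and 10.4 CPM in T Stage IV, at least 129-fold higher, with an adjusted p of 0.444 by edgeR. The deadenylase gene cnot6b stood at 0, 0 and 2.19 CPM against 66.7, 55.1 and 9.12 CPM (edgeR adjusted p 0.259). For SPRED2, GINS1 and cnot6b the T Stage I medians were 15.7, 3.12 and 39.4 CPM. Their T Stage II medians were 13.5, 17.6 and 28.9 CPM, so their transcripts were not particular to T Stage IV. The other six were rexo4, IFT52, NIF3L1, COX18, EPB41L5 and MRPL45, with adjusted p values from 0.444 to 0.47 and at most 6.05 CPM in a T Stage III library.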

How the data were processed

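Sorted zebrafish lymphocytes were dissected from thymus and marrow, and RNA was made into QuantSeq 3-prime FWD libraries, per the labels' protocols. The deposited table of raw counts per gene, made by the authors, held 14424 rows, 1 of which was the gfp transgene (kept in library sizes, not tested). FastQC 0.11.8, STAR, featureCounts, DESeq2 1.38.3 and the GRCz11 build are named in the submitters' processing notes, and the annotation and strand setting are not given in the sources used here, so overlapping and antisense genes cannot be told apart. Symbols, some in human style, matched 13909 of 14423 identifiers. No genome was used.

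CPM were computed over all rows. Tests used edgeR 4.0.16 in R 4.3.3 (TMM, glmQLFit with legacy = FALSE and robust moderation), with 1 mean for each of 19 groups over all 53 libraries and genes with at least 10 counts in at least 3 libraries, which kept all 14423. DESeq2 1.42.0 was an alternative. The test was checked on simulated counts, where it made more false calls than its threshold allows. SE is the size of the fitted log2 fold change divided by the square root of the test's F statistic. It was thus worked back from the test and is approximate. Bounds written "at least" set a mean level against 3 counts per library. With 3 against 3, an exact permutation test of 1 gene cannot go below a two-sided p of 0.1, so none was used.

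The text names the genes with an adjusted p under 0.05 (1 of them is not reported here), then in each direction the 10 genes with the smallest p among those with a mean of at least 10 CPM in the higher group, separate libraries and a gene symbol other than a clone name, the reporters, and examples from gene lists. List examples beyond the most abundant were picked after their values were seen. The comparison, the lists and their members were chosen with earlier results of these data known.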

Additional observations from a re-analysis of the deposited data

How the results depend on the processing

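The 11 calls, all lower in T Stage IV, rest on the test and on single libraries. Under median-ratio size factors 12 genes were called (11 shared), without a filter 11, and under edgeR's older quasi-likelihood formulation, an alternative chosen after seeing the data, 13 (4 shared, 1 higher). The filter had removed no gene, so the fit without it repeats the main fit. It is among the 13 alternatives tallied below, where its agreement was fixed in advance. A fit of the 6 libraries alone called 33 (29 lower, 4 higher, 8 shared), a filter within the 6 libraries 19 (10 shared), non-robust moderation 20 (19 lower, 1 higher, 10 shared) and DESeq2 1686 (853 higher, 833 lower, 9 shared). Of the DESeq2 calls, 1089 had more than 3 counts in at most 1 library of each group. Leaving out 1 library gave 3 to 14 calls, all lower: 14, 8 and 4 without library 45, 46 or 47 and 3, 4 and 4 without library 48, 49 or 50. Over the 13 alternatives, ccl38.6, ccl38a.4 and cd74a were called in 12 each, si:dkey-238c7.12 in 11, SYK in 8, and lgals3bp.1, ccl34b.4, grna.1, GPR183 and c1ql1 in 7 each. The adjusted p values over the alternatives ran from 7.48e-12 to 0.224 for ccl38.6, from 5.65e-14 to 0.0809 for ccl38a.4, up to 0.0972 for cd74a and up to 0.601 for the other called genes named, and for ccl38.6 the value of 0.224 came from the older formulation. The cause of these shifts was not tested. No gene named by the rule changed sign under any of the 13. TMM and median-ratio scaling left the median log2 fold change of 5915 genes at 0.02 and 0.01. On simulated counts the test made more false calls than its threshold allows. Their spread followed the trend fitted over all 53 libraries, with an assumed variation between genes. No paired analysis was possible because the groups share no replicate numbers in the labels. The labels name no batch. Zeros in single libraries limit what can be said of single genes, and they were not confined to low levels. In both groups, many genes that reached 10 CPM in a library had no count in another library of the group.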

Other observations

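The RRM2 gene, which encodes a subunit of ribonucleotide reductase, has a pair of identifiers in the table whose counts changed places between libraries. The identifier ENSDARG00000020711 held 7.26, 1.3 and 490 CPM in T Stage III and 315, 203 and 0.387 CPM in T Stage IV, while ENSDARG00000078069 held 402, 601 and 0.378 CPM and 260, 247 and 228 CPM. Their sums were 409, 602 and 491 CPM against 575, 450 and 229 CPM, so the pair was counted in all 6 libraries although each copy was almost absent from some. Values of single copies in such families are uncertain, and the genes were picked after their values were seen.

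Among the 6 libraries, library 46 of T Stage III stood apart in muscle genes, picked after their values were seen. MYL11, a fast muscle myosin light chain gene, stood at 0, 412 and 30.2 CPM in T Stage III and at 9.89, 5.84 and 0 CPM in T Stage IV, and actc1b, a muscle actin gene, at 37.7, 381 and 14.2 CPM and at 9.39, 27.7 and 3.48 CPM. In a fit of the 6 libraries alone both were called lower, with adjusted p values of 3.56e-05 and 0.00151. Neither is among the 11 calls, with edgeR adjusted p values of 0.0559 for MYL11 and 0.46 for actc1b in the fit over all 53 libraries. MYL11 was also called with the filter within the 6 libraries (0.0178), non-robust moderation (0.0478) and without library 45 (0.015). Thymic B libraries also held these transcripts, with MYL11 up to 716 CPM (median 53.5 CPM) and actc1b up to 260 CPM (median 71.6 CPM). In T Stage I they reached 94.6 and 75.4 CPM, and in T Stage II at most 3.22 and 9.74 CPM.

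XBP1, which in mammals drives the secretory programme of plasma cells, stood at 48.1, 63.5 and 62.6 CPM in T Stage III and at 18.5, 21.9 and 8.84 CPM in T Stage IV (log2 fold change -1.92, SE 0.67, edgeR adjusted p 0.525). XBP1 belongs to the list of B lineage regulators, and its groups did not overlap. Its medians were 62.3 CPM in T Stage I and 16.5 CPM in T Stage II. They were 272 CPM in thymic B cells, 262 CPM in early T-committed cells and 334, 384 and 375 CPM in B Stages I, II and III.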
